A study of Mus musculus with 6 samples.

Results

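A set of 37 genes, of 25033 listed, lay under 0.5 CPM (the read count of a gene per 1000000 counts of its library) in each of 3 control libraries and at 1 CPM or more in each of 3 inhibitor libraries. They were chosen by these levels. The rule also left out 8 genes by name, and 3 of those (Hba-a2, Gsta3 and Myl9) met both limits, so that 40 genes met them in all. RNA came from GFP+ haematopoietic stem cells (HSCs, marrow cells that give rise to the blood lineages), sorted from recipient mice that had been given transplanted HSCs. In the inhibitor group (3 libraries) the transplanted HSCs had been treated with an inhibitor of miR-31-5p, and in the control group (3 libraries) with a control RNA. Mice of both groups were C57BL/6J animals aged 6 months, and every library was made from sorted GFP+ cells of bone marrow. Whether replicate libraries derive from different animals is not labelled, so the p-values below measure the spread between these libraries, which may be technical.

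A microRNA guides a silencing complex to transcripts whose 3′ untranslated region (UTR) pairs with its seed, the bases near its 5′ end, and an inhibitor binds the microRNA in place of those transcripts. Genes of neurons, epithelium or muscle are kept at very low levels in blood stem cells by chromatin and by the lack of the factors that drive them, and a bulk library shows such genes as a few counts or none.

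The members came from many families, with a pair each from the Gal3st2 and apolipoprotein L genes, and most are best known outside the blood. By textbook knowledge, nervous tissue is among the usual places of 14 of them, the heart, muscle or vessels of 9, epithelium of 7, and blood cells, platelets or osteoclasts of 5, with some genes in more than 1 class. For 5 members no usual tissue is given here, and Hhip, Ido2, Khdc1a and Lpar3 fall in none of these classes. A rule that asks for near silence in control HSC libraries favours genes of other tissues. The same tally was not made for the other genes low in the controls. All but 1 encode proteins, the exception being the long noncoding RNA Gm13546. They lay on 18 chromosomes, with at most 5 on any chromosome.

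The sequences shown first are the microRNA that was inhibited and the letters in members' transcripts that match its seed. The mature miR-31-5p of the mouse (RefSeq, GRCm38.p6, chr4:88910614-88910635, minus strand) is given with its seed, bases 2 to 8, in capitals. Below it stand sites in the longest annotated 3′ UTR (GENCODE M21) of 4 members, with the letters TCTTGCC that pair with the seed in capitals. Akap6 and Lpar3 are shown because their match extends by an A to an 8mer, Kcna2 because its UTR holds 2 matches, and Hhip because it belongs to a signalling pathway described below.
mmu-miR-31-5p: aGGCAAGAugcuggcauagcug
Akap6: tctacttggctctctTCTTGCCacgcaaga
Hhip: acaataccctttggtTCTTGCCtcaataaa
Kcna2: gaaagtaggattcccTCTTGCCttagttaa
Kcna2: atgccctccattctgTCTTGCCtagcagtg
Lpar3: tgggctctgtcaccaTCTTGCCaccattgt
Of the 36 members with an annotated 3′ UTR, 7 held at least 1 match (19.4%): Akap6, Hecw2, Hhip, Kcna2, Lpar3, Olfml3 and Tspan7. The share was 9.16% over the 7851 genes with a UTR that were under 0.5 CPM in every control library, 10.4% over the 906 of these that are not members and had a count in each control library, 13.8% over all tested genes and 11.9% over all genes with a UTR. The members' UTRs were also longer, with a median of 1848 bases against 769, 930, 1363 and 1119 bases in those 4 sets. The other 29 members held no such match in that UTR. A match describes the letters and shows no pairing in these cells.

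The members' summed level was 67.6, 70.2 and 73.5 CPM in inhibitor libraries 1 to 3, against 8.75, 7.15 and 8.71 CPM in control libraries 1 to 3. Among the inhibitor libraries, library 1 was the highest for 10 members, library 2 for 12 and library 3 for 15. The rule asked for 1 CPM or more in each of them, so this split is a description only. Each member had 18 to 71 counts in an inhibitor library, against 0 to 10 counts in a control library. Near silent therefore does not mean absent, as 32 of the 37 members had a count in every control library, and the other 5 (Cspg4, Scube1, Wnt11, Sorcs1 and Heatr9) were at 0 in control library 2 only, which allows up to 0.151 CPM at 3 counts. The members were low in the inhibitor libraries too, where 10863 genes had a higher mean CPM than any of them. Their mean RPKM (CPM per kilobase of the longest transcript, from the deposited column) ran from 0.0868 for Cacna1c to 2.81 for Gm13546 with a median of 0.538 in inhibitor libraries, against a median of 0.0678 in control libraries. The members' longest transcripts had a median of 3339 bases, against 2093 over all listed genes and 1280 over the genes under 0.5 CPM in every control library. In these bulk libraries, a change in the number of cells of a type and a change in RNA per cell cannot be told apart.

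Libraries held 16873188 to 19496200 counts in the inhibitor group and 19866738 to 21245861 in the control group, so 1 CPM was 16.9 to 21.3 counts and 0.5 CPM 8.44 to 10.6 counts. The ribosomal RNA precursor Rn45s had 1784 to 3145 counts in inhibitor libraries, against 20039, 3667 and 61656 in control libraries 1 to 3, and its part in the members' levels was not tested. Without control libraries 1 and 3 the rule, which then asks less, took 66 genes. Markers of haematopoietic stem and progenitor cells summed to 941 to 983 CPM in inhibitor libraries, against 868 to 913 CPM in control libraries, with 14 of 15 listed genes at 0.5 CPM or more in some library. Kit and Cd34, which did not pass, made up most of that sum. Of 13 tested genes 5 were higher and 2 lower, beside 20.4 and 20.1% of all tested genes. Procr averaged 7.56 ± 1.01 CPM in the inhibitor group and 1.06 ± 0.111 CPM in the control group (SD, n = 3 each), and Slamf1 and Esam were higher too. Hlf was lower, at 3.66 ± 0.474 against 6.93 ± 0.625 CPM, as was Ly6a, with a log2 change of -0.51 to -0.35 over the fits tried.

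Of the 11879 genes under 0.5 CPM in every control library, 11738 reached 1 CPM in no inhibitor library, 74 in 1, 27 in 2 and 40 in all 3. In the mirrored direction, 11546 genes were under 0.5 CPM in every inhibitor library, and 11522 of these reached 1 CPM in no control library, 14 in 1, 2 in 2 and 8 in all 3. The 8 were Fpr2, Tns4 and the clustered histone genes Hist1h1a, Hist1h1b, Hist1h2ag, Hist1h3b, Hist1h3e and Hist1h4d. The limits were thus crossed upwards in more genes than downwards, and the genes differed in kind. By edgeR quasi-likelihood over 12978 tested genes, at a Benjamini-Hochberg adjusted p under 0.05, all 37 members passed the count filter and were called higher, where 20.4% of all tested genes were called higher and 20.1% lower. The rule used that contrast, so nothing is read from the members' count.

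**Figure D1:**
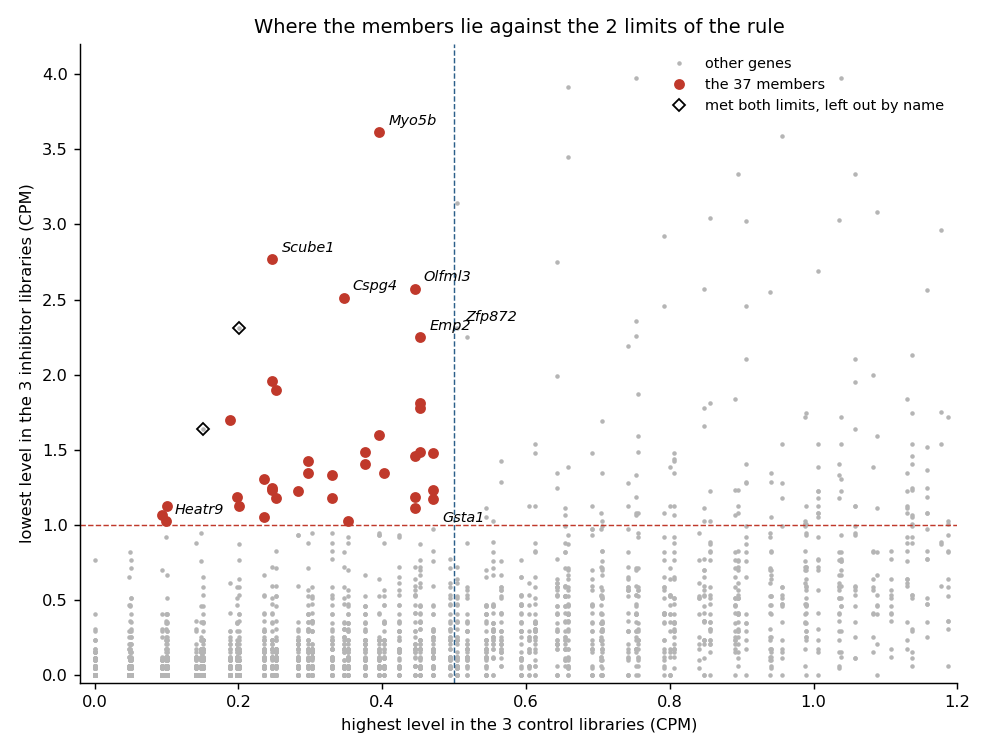
Each point is a gene, placed by its lowest level in the 3 inhibitor libraries (vertical axis, CPM) and its highest level in the 3 control libraries (horizontal axis, CPM). Dashed lines mark the limits of 1 and 0.5 CPM, red points are the 37 members, and open diamonds are genes that met both limits and were left out by name (the third lies above the plotted range). Myo5b lies farthest above the upper limit at 3.62 CPM, and several members lie close to each line.

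The limits cut through a continuous spread of levels. Just inside the control limit were Bcl2a1a, Gal3st2c and Tlr11, each with 0.471 CPM (10 counts) in control library 3. Just outside it were Zfp872, with 2.31 to 3.26 CPM in inhibitor libraries and at most 0.503 CPM in a control library, Aldh1a7 with 4.62 to 5.59 and at most 0.518 CPM, and 5330416C01Rik with 1.11 to 1.30 and at most 0.544 CPM. Just inside the inhibitor limit were Heatr9 and Hepacam2, with a lowest value of 1.03 CPM, and Cacna1c with 1.05 CPM. Just outside it were Gsta1 at 0.975 CPM, and Atcay and Cxcr6 at 0.948 CPM in their lowest inhibitor library. A difference of 1 or 2 counts therefore decided membership at both edges.

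Ratios below are summed counts per summed library total in the inhibitor group over the same in the control group, with an exact (Clopper-Pearson) 95% interval that covers counting error only. They ran from 4.23 for Dlgap3 to 34.4 for Sorcs1 with a median of 8.55, and 9 members were above 10 and 3 below 5. The lowest bound of any interval was 2.52. Since the rule sets a ratio of at least 2 between any inhibitor and any control library, these ratios are a description and were not tested.

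**Figure D2:**
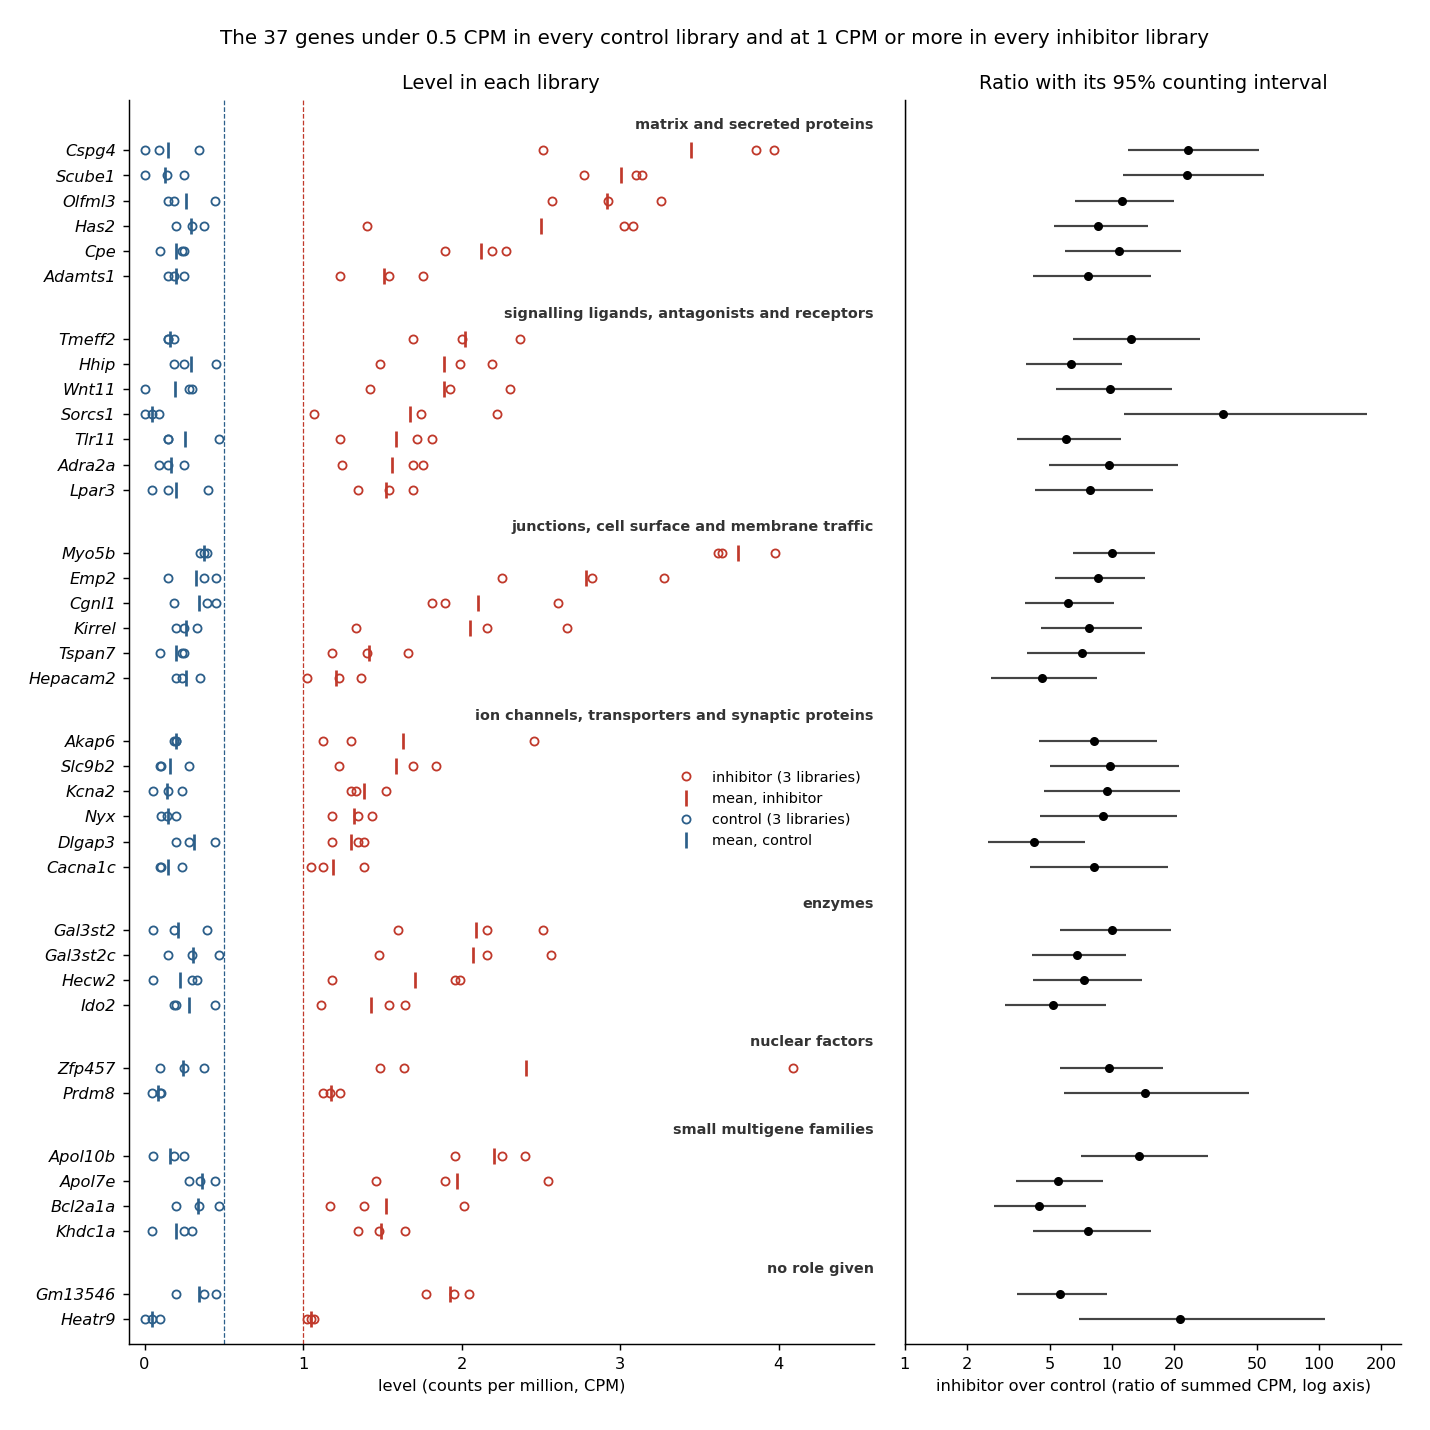
Left, the level of each of the 37 members in each library (open circles, CPM) with the group means (vertical ticks), inhibitor in red and control in blue, grouped by role; dashed lines are the limits of 1 and 0.5 CPM. Right, the ratio of inhibitor over control on a log axis with its 95% counting interval, from 4.23 for Dlgap3 to 34.4 for Sorcs1.

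Proteins of the extracellular matrix and secreted proteins held 6 members and 4 of the 6 highest levels. Cspg4 encodes NG2, a proteoglycan known from pericytes and from the precursors of oligodendrocytes. It had 2.51, 3.86 and 3.97 CPM in inhibitor libraries 1 to 3, against 0.346, 0 and 0.0941 CPM in control libraries 1 to 3, a ratio of 23.2 (12.0 to 51.5). Its control counts came mostly from library 1, without which the ratio was 70.0 on 2 control counts (19.1 to 582). Scube1, a secreted and cell surface glycoprotein stored in platelets and made by endothelium, had 2.77, 3.10 and 3.14 CPM in inhibitor libraries, against 0.247, 0 and 0.141 CPM in control libraries. The ratio was 22.9 (11.4 to 54.1), and 41.0 (13.8 to 201) without control library 1. Both genes were thus clear of the limits by several counts in every library.

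Olfml3, a secreted olfactomedin-domain protein of vessels and microglia, had 2.92, 2.57 and 3.26 CPM in inhibitor libraries, against 0.445, 0.151 and 0.188 CPM in control libraries (ratio 11.2, and 17.1 without control library 1). Has2, the enzyme that makes the matrix polysaccharide hyaluronan and is needed for heart valve formation, had 3.03, 1.40 and 3.08 CPM in inhibitor libraries, against 0.198, 0.302 and 0.377 CPM in control libraries. Inhibitor library 2 was low for Has2, with 24 counts against 59 and 52 in the other two. Cpe, carboxypeptidase E, which trims prohormones in neurons and endocrine cells, had 1.90, 2.28 and 2.19 CPM in inhibitor libraries, against 0.0989, 0.252 and 0.235 CPM in control libraries (ratio 10.8). Adamts1, a metalloproteinase that cleaves aggrecan and versican in ovary and vessels, averaged 1.51 ± 0.263 CPM in the inhibitor group and 0.196 ± 0.0485 CPM in the control group (SD, n = 3 each).

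Signalling ligands, antagonists and receptors held 7 members from 7 different systems. Tmeff2, a transmembrane protein of brain and prostate with EGF-like and follistatin domains, had 2.0, 1.70 and 2.37 CPM in inhibitor libraries, against 0.148, 0.151 and 0.188 CPM in control libraries (ratio 12.4). Hhip, which binds Hedgehog ligands and so limits the pathway that induces it, had 1.49, 1.99 and 2.19 CPM in inhibitor libraries, against 0.247, 0.453 and 0.188 CPM in control libraries (ratio 6.37). Wnt11, a ligand of the beta-catenin-independent Wnt branch in heart and kidney development, had 2.31, 1.93 and 1.42 CPM in inhibitor libraries, against 0.297, 0 and 0.282 CPM in control libraries (ratio 9.75). The inhibitor libraries did not share an order in these genes: library 1 was the lowest for Hhip and the highest for Wnt11.

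Sorcs1, a sorting receptor of neurons with a VPS10 domain, had the highest ratio, 34.4 (11.4 to 170), on 90 counts in the inhibitor group and 3 in the control group, and 67.5 (11.8 to 2694) without control library 3. Adra2a, an alpha-adrenoceptor of neurons, platelets and pancreatic islets, averaged 1.56 ± 0.278 CPM in the inhibitor group and 0.164 ± 0.0774 CPM in the control group (SD, n = 3 each). Lpar3, a receptor for lysophosphatidic acid that acts in the uterus at implantation, averaged 1.53 ± 0.174 against 0.199 ± 0.183 CPM (ratio 7.84, and 15.9 without control library 2). Tlr11, a mouse Toll-like receptor for protozoan profilin, averaged 1.59 ± 0.312 against 0.257 ± 0.185 CPM (ratio 6.02, and 10.5 without control library 3). In both receptors 1 control library held most of the control counts.

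The 6 members of cell junctions, the cell surface and membrane traffic are mostly known from epithelium. Myo5b (chromosome 18, 74442364 to 74772698), the motor that carries recycling vesicles to the apical membrane, was the highest member in CPM. It had 3.64, 3.98 and 3.62 CPM in inhibitor libraries, against 0.396, 0.352 and 0.377 CPM in control libraries, a ratio of 9.97 (6.46 to 16.1). Its libraries differed within a group by less than counting noise, as chi-square over its degrees of freedom was 0.188 among inhibitor and 0.0251 among control libraries. Emp2, a membrane protein of lung epithelium, had 2.82, 3.27 and 2.25 CPM in inhibitor libraries, against 0.148, 0.453 and 0.377 CPM in control libraries (ratio 8.55). Cgnl1, the junction protein paracingulin, had 1.90, 1.81 and 2.61 CPM in inhibitor libraries, against 0.396, 0.453 and 0.188 CPM in control libraries (ratio 6.12).

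Kirrel, which encodes NEPH1 of the podocyte slit diaphragm in the kidney filter, had 1.33, 2.16 and 2.67 CPM in inhibitor libraries, against 0.198, 0.252 and 0.329 CPM in control libraries (ratio 7.74). Tspan7, a tetraspanin of neurons and pancreatic islets, averaged 1.41 ± 0.240 CPM in the inhibitor group and 0.195 ± 0.0839 CPM in the control group (SD, n = 3 each). Hepacam2, an immunoglobulin-like protein of secretory cells of the gut, averaged 1.21 ± 0.170 against 0.262 ± 0.0806 CPM (ratio 4.59), close to both limits. Most general epithelial genes were near silent throughout: of 17 listed epithelial markers 14 were under 0.5 CPM in all 6 libraries and the keratin genes Krt5, Krt14, Krt15, Krt17 and Krt19 had no count. Summed, that list had 7.95 to 9.34 CPM in inhibitor libraries, against 5.59 to 6.31 CPM in control libraries. Of its 3 tested genes Epcam and Cdh1 were called higher, beside 20.4% of all tested genes. Epcam was under 0.5 CPM in every control library, so that it passed the count filter through the inhibitor group, and it lost the call without control library 3, without inhibitor library 3 and without control libraries 1 and 3. Cdh1 lost it in DESeq2, when control library 1 or 2 or inhibitor library 1 or 2 was left out, and without control libraries 1 and 3 together. The list's part in the members' levels was not tested.

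Ion channels, transporters and synaptic proteins held 6 members, all under 1.7 CPM on average. Akap6, which anchors protein kinase A at the nuclear envelope of muscle cells and neurons, had 1.13, 2.46 and 1.30 CPM in inhibitor libraries, against 0.198, 0.201 and 0.188 CPM in control libraries (ratio 8.22), with inhibitor library 2 apart from the other two. Slc9b2, a sodium/proton exchanger of osteoclasts and kidney, had 1.69, 1.23 and 1.84 CPM in inhibitor libraries, against 0.0989, 0.101 and 0.282 CPM in control libraries (ratio 9.75, and 15.9 without control library 3). Kcna2, a delayed-rectifier potassium channel of axons, had 1.33, 1.52 and 1.30 CPM in inhibitor libraries, against 0.148, 0.0503 and 0.235 CPM in control libraries (ratio 9.43). The inhibitor libraries agreed within counting noise for Kcna2, while a gap between the groups was required of every member by the rule.

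Nyx, which encodes nyctalopin of retinal bipolar cells, averaged 1.32 ± 0.127 CPM in the inhibitor group and 0.147 ± 0.0488 CPM in the control group (SD, n = 3 each). Dlgap3, a postsynaptic scaffold of striatal neurons, averaged 1.31 ± 0.106 against 0.310 ± 0.124 CPM, the smallest ratio of the set. Cacna1c, the pore of the L-type calcium channel of heart, smooth muscle and neurons, averaged 1.19 ± 0.175 against 0.145 ± 0.0783 CPM (ratio 8.16). It had the lowest RPKM of the set and the longest transcript, 13643 bases. Markers of neurons were nearly all silent: 13 of 17 were under 0.5 CPM in every library, and Snap25, Stmn2, Gad2, Slc17a6 and Dcx had no count. Summed, they had 4.62 to 6.10 CPM in inhibitor libraries, against 2.27 to 3.15 CPM in control libraries. Of the 3 tested genes 2 were called higher (Tubb3 and Map2), beside 20.4% of all tested genes. Tubb3, at no more than 6 counts in a control library, passed the count filter through the inhibitor group, and Map2 lost its call without inhibitor library 1 and without control libraries 1 and 3.

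The enzymes were Gal3st2 and Gal3st2c, sulfotransferases that add sulfate to galactose on glycoproteins of the gut, Hecw2, a ubiquitin ligase known from the nervous system, and Ido2, a tryptophan dioxygenase of liver and kidney. Gal3st2 had 2.51, 2.16 and 1.60 CPM in inhibitor libraries, against 0.396, 0.0503 and 0.188 CPM in control libraries (ratio 9.97, and 17.4 without control library 1). Gal3st2c had 2.56, 2.16 and 1.48 CPM in inhibitor libraries, against 0.297, 0.151 and 0.471 CPM in control libraries (ratio 6.76). The 2 genes ran in the same order over the inhibitor libraries, highest in library 1 and lowest in library 3. Their relative Gal3st2b did not, with 17, 9 and 35 counts in inhibitor libraries 1 to 3. Of the 50-base words of the Gal3st2 transcript 78.5% also occur in transcripts of other genes, chiefly Gal3st2b, so reads may be split between copies. For Gal3st2c that share was far smaller, and how reads were split was not tested. Hecw2 had 1.18, 1.99 and 1.96 CPM in inhibitor libraries, against 0.297, 0.0503 and 0.329 CPM in control libraries (ratio 7.37). Ido2 averaged 1.43 ± 0.282 CPM in the inhibitor group and 0.278 ± 0.145 CPM in the control group (SD, n = 3 each).

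Of the nuclear factors, the zinc finger gene Zfp457 was the least even member. It had 1.49, 1.64 and 4.09 CPM in inhibitor libraries, against 0.0989, 0.252 and 0.377 CPM in control libraries. Inhibitor library 3 had 69 counts and the other two 29 and 28, giving 15.8 for chi-square over its degrees of freedom, where the median over members was 0.960. The ratio was 9.64, and 6.37 without inhibitor library 3. Prdm8, a factor with a PR domain that acts in neural development, was among the evenest, with 1.23, 1.17 and 1.13 CPM in inhibitor libraries, against 0.0989, 0.101 and 0.0471 CPM in control libraries (ratio 14.5, 5.88 to 46.0). The rule asked for 1 CPM or more in each inhibitor library, so the evenness of Prdm8 near that limit is a description only. Of its transcript's 50-base words 28.5% are shared with other genes, nearly all with A730035I17Rik on the opposite strand. That gene had 2, 0 and 4 counts in inhibitor libraries, against 5, 1 and 2 in control libraries, and those values overlap between the groups. Other members with inhibitor libraries more than 3 times as variable as counting noise by this measure were Has2, Akap6, Kirrel, Cspg4 and Sorcs1.

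Members of small multigene families were Apol10b and Apol7e of the apolipoprotein L family, Bcl2a1a, an anti-apoptotic BCL2 relative of blood cells, and Khdc1a, a KH-domain gene of oocytes. Apol10b had 2.26, 2.40 and 1.96 CPM in inhibitor libraries, against 0.247, 0.0503 and 0.188 CPM in control libraries (ratio 13.5). Apol7e had 1.90, 1.46 and 2.55 CPM in inhibitor libraries, against 0.445, 0.352 and 0.282 CPM in control libraries (ratio 5.47). Bcl2a1a had 1.38, 1.17 and 2.01 CPM in inhibitor libraries, against 0.346, 0.201 and 0.471 CPM in control libraries (ratio 4.42). Near-copies exist for 3 of them, as 78.5% of the 50-base words of Apol7e, 69.0% of Bcl2a1a and 43.5% of Khdc1a were found in transcripts of other genes, against 6.11% for Apol10b. Khdc1a averaged 1.49 ± 0.148 CPM in the inhibitor group and 0.198 ± 0.133 CPM in the control group (SD, n = 3 each).

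Heatr9 and Gm13546 have no role given here. Heatr9 (chromosome 11, 83511679 to 83522494) had 1.03, 1.05 and 1.07 CPM in inhibitor libraries, against 0.0989, 0 and 0.0471 CPM in control libraries. It was the lowest member in CPM and the most even over the inhibitor libraries. The rule asked for 1 CPM or more in each of these, so evenness this near the limit is a description only. The ratio of 21.4 for Heatr9 rested on 3 control counts (6.96 to 107), or 43.1 on 1 control count (7.42 to 1731) without control library 1. Gm13546 (chromosome 2, 58163974 to 58177063) had 1.95, 2.05 and 1.78 CPM in inhibitor libraries, against 0.198, 0.453 and 0.377 CPM in control libraries (ratio 5.63). Per length it was the highest member, and its longest transcript, 683 bases, was the shortest of the set.

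Relatives of the multigene members, which the rule did not use, were in part higher as well. Families were listed after the members had been seen, and of 101 other listed genes in 21 families 51 were tested, 19 of them higher and 9 lower, beside 20.4 and 20.1% of all tested genes. Of the 19, Gal3st2b and Khdc1c were under 0.5 CPM in every control library and so passed the count filter through the inhibitor group, and without such genes 17 of 49 were higher and 9 lower, beside 19.6 and 20.4% of all tested genes at 0.5 CPM or more in a control library. The 4 families with near-copies (Bcl2a1, Gal3st, apolipoprotein L and Khdc1) held 7 of the 19 higher relatives, or 5 of the 17. Bcl2a1b averaged 24.6 ± 1.94 CPM in the inhibitor group and 5.58 ± 0.590 CPM in the control group (log2 change 2.13 ± 0.12), and Bcl2a1d 11.1 ± 0.427 against 2.76 ± 0.276 CPM (2.01 ± 0.15). Apol7c, at 216 to 236 CPM in inhibitor and 42.0 to 46.6 CPM in control libraries, had far more counts than the 2 members of its family. Apol7b averaged 4.17 ± 0.239 CPM in the inhibitor group and 0.603 ± 0.0936 CPM in the control group (2.77 ± 0.26). These 4 had a Benjamini-Hochberg adjusted p of at most 6.30e-07 by edgeR quasi-likelihood. How far reads from these relatives were counted at Bcl2a1a and Apol7e was not tested. Of 5 tested relatives of Adamts1, 2 were higher and 0 lower, while in some other families the calls went both ways. Of 11 other Toll-like receptors, all tested, 2 were higher (Tlr3 and Tlr13) and 3 lower (Tlr1, Tlr2 and Tlr7). Of 3 relatives of Emp2, Pmp22 was higher and Emp1 lower. Emp3 was also called lower, but lost the call in DESeq2 and under 8 other settings.

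Lists of pathway genes were used to set some members among their partners. The Hedgehog list of 17 genes held Hhip and Scube1, and of its 7 other tested genes 3 were higher (Scube3, Cdon and Disp1) and none lower, beside 20.4 and 20.1% of all tested genes, as for each list below. Scube3, a relative of Scube1, averaged 2.34 ± 1.27 CPM in the inhibitor group and 0.621 ± 0.0918 CPM in the control group (log2 change 1.90 ± 0.40, Benjamini-Hochberg adjusted p = 0.00144 by edgeR quasi-likelihood). Cdon, a co-receptor, had a log2 change of 0.74 ± 0.21 and Disp1, which releases the ligand, 0.26 ± 0.10. Both lost the call without inhibitor library 1 and without control libraries 1 and 3 together, and Disp1 also without control library 3 or without inhibitor library 2. The direct target Gli1 had 0.677 ± 0.347 against 0.314 ± 0.273 CPM and did not pass (Benjamini-Hochberg adjusted p = 0.168 by edgeR quasi-likelihood), and the receptor Ptch1, another target, had a log2 change of 0.19 ± 0.07 (adjusted p = 0.0538, likewise in edgeR). Gli1 passed without control library 1, and Ptch1 without control library 2, with RLE factors, with the filter at 1 CPM and with the replicate block. Of the ligands, Shh had no count and Ihh and Dhh at most 5 counts in any library.

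The Wnt list of 35 genes held Wnt11, and of 16 other tested genes 3 were higher and 2 lower, shares no larger than those over all tested genes. The higher ones were the receptors Fzd3 (log2 change 0.65 ± 0.18), Fzd2 (2.19 ± 0.63) and Lrp6 (0.23 ± 0.06), and the lower ones the co-receptor Lrp5 (-0.18 ± 0.06) and the ligand Wnt10b (-0.52 ± 0.19). Fzd2 was under 0.5 CPM in every control library and passed the count filter through the inhibitor group, and it lost its call without inhibitor library 2 (Benjamini-Hochberg adjusted p = 0.0511 by edgeR quasi-likelihood), and Lrp5 and Wnt10b lost theirs without control library 3 and without inhibitor library 3, among others. The voltage-gated channel list of 35 genes held Cacna1c and Kcna2, and of 15 other tested genes 4 were higher and 1 lower. Kcna3, the potassium channel of lymphocytes, averaged 52.2 ± 4.25 CPM in the inhibitor group and 32.8 ± 3.70 CPM in the control group (log2 change 0.67 ± 0.09), so the related channel at a higher level in these cells was higher too. Cacna1b (1.11 ± 0.23) and Cacna1h (0.84 ± 0.28) were also higher and Scn3a (-0.70 ± 0.25) lower, the last 2 losing the call without control library 2 and without inhibitor library 2.

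The VPS10 list held Sorcs1, and of 3 other tested receptors none was higher and Sorl1 was lower (log2 change -0.34 ± 0.06, Benjamini-Hochberg adjusted p = 0.000591 by edgeR quasi-likelihood). Sort1 and Sorcs2 had adjusted p = 0.877 and 0.0931 in that edgeR test. The smooth muscle and pericyte list held Cspg4. Of its other tested genes Synpo2, an actin-bundling protein, was higher (8.97 ± 0.589 against 1.43 ± 0.213 CPM, log2 change 2.63 ± 0.19), as was Tagln (2.50 ± 0.0557 against 1.32 ± 0.299 CPM, 0.91 ± 0.26), whose call was lost without control libraries 1 and 3. Acta2 (-0.67 ± 0.38, adjusted p = 0.171) and Notch3 (-0.21 ± 0.33, adjusted p = 0.648) did not pass, by edgeR quasi-likelihood with p-values adjusted after Benjamini-Hochberg. The list summed to 16.3 to 17.5 CPM in inhibitor libraries, against 5.54 to 5.65 CPM in control libraries, most of the difference lying in Synpo2 and Cspg4. Myh11, Cnn1, Rgs5, Abcc9 and Lmod1 had at most 8 counts in any library, and Des and Kcnj8 had none.

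Some other marker lists were higher in the inhibitor group and others were mixed or lower, and their part in the members' levels was not tested. Osteoclast markers, beside the osteoclast gene Slc9b2, summed to 36.8 to 39.4 CPM in inhibitor libraries, against 8.90 to 13.3 CPM in control libraries, and all 4 that were tested (Acp5, Ctsk, Dcstamp and Atp6v0d2) were higher. Megakaryocyte and platelet markers, beside the platelet genes Scube1 and Adra2a, summed to 4531 to 4627 CPM in inhibitor libraries, against 1938 to 2171 CPM in control libraries, and all 14 were higher. Dendritic cell markers, beside Tlr11, split with 4 higher (led by Ccl22 and Fscn1) and 4 lower (Ccr9, Siglech, Cd209a and Bst2). Marrow stroma and fibroblast markers had 1 higher and 2 lower of 4 tested, and T and NK cell markers 1 and 2 of 5. B cell and plasma cell markers had 0 higher and 2 lower of 2. Some of these calls were lost when 1 library was left out. Lactating mammary gland markers were at 0 in every library for 7 of 8 genes. The other, Csn2, was called higher, but it was under 0.5 CPM in every control library and passed the count filter through the inhibitor group.

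**Figure D3:**
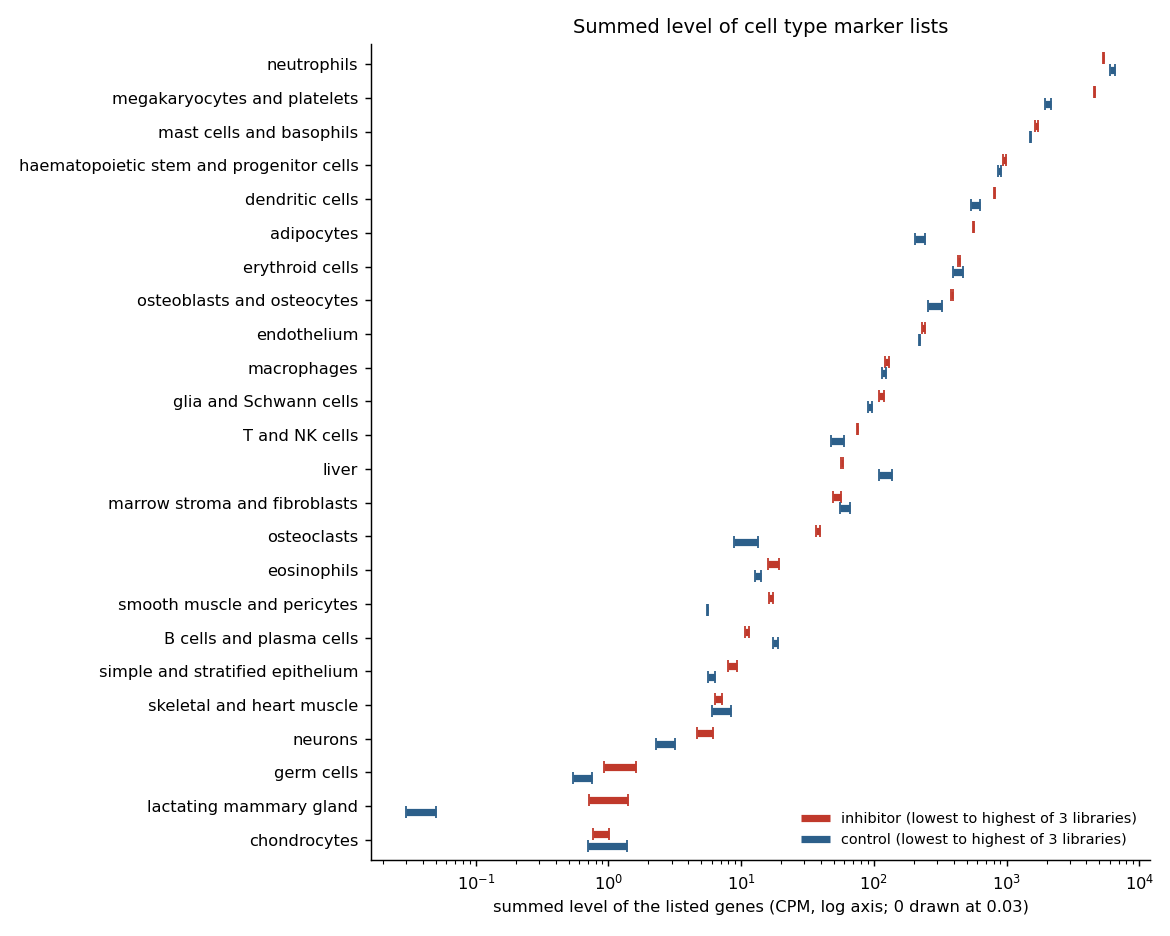
Summed level of each cell type marker list on a log axis (CPM), drawn from the lowest to the highest of 3 libraries, inhibitor in red above control in blue. Neuron and epithelium lists stay under 10 CPM in both groups, while the osteoclast list has 36.8 to 39.4 CPM in inhibitor and 8.90 to 13.3 CPM in control libraries.

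Genes next to the members on the chromosome were examined because the rule did not use them. The nearest tested gene that is not a member was a different gene for each of the 37, and 16 of them (43.2%) were higher, 4 lower and 17 did not pass, beside 20.4% higher and 20.1% lower over all tested genes. Their median log2 change was 0.11, against -0.01 over all tested genes. In 6 cases the neighbour belongs to the member's own family (Adamts5, Apol7c, Apol8, Gal3st2b, Khdc1c and Zfp595) and 5 of these were higher, which leaves 11 higher of 31 (35.5%) among neighbours of other families. Gal3st2b, Khdc1c and Atf7ip2 were themselves under 0.5 CPM in every control library and could be tested only through the inhibitor group. Leaving out both kinds gives 10 higher of 30 (33.3%), with a median of 0.07. Within 50 kb, with both kinds kept, 10 of 24 neighbours were higher and 2 lower. Gal3st2b, Khdc1c, Atf7ip2 and Apol8 are among those 10. When no filter on low counts was used, so that nearer and weaker genes became the neighbours, 9 were higher and 3 lower.

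The 5 neighbours with the smallest p-values differed in direction. Apol7c, 50.8 kb from Apol10b, had 216, 218 and 236 CPM in inhibitor libraries, against 46.6, 42.0 and 44.6 CPM in control libraries (log2 change 2.33 ± 0.07). Ccl5, a chemokine gene 3.28 kb from Heatr9, had 48.6, 50.8 and 43.6 CPM in inhibitor libraries, against 6.43, 6.34 and 4.80 CPM in control libraries (3.02 ± 0.12). Its level in the inhibitor libraries was far above that of Heatr9. Cavin2, a caveolar coat protein gene 101.9 kb from Tmeff2, had 89.6, 87.9 and 84.8 CPM in inhibitor libraries, against 36.8, 37.6 and 40.5 CPM in control libraries (1.19 ± 0.07). AI504432, 36.6 kb from Kcna2, had 181, 175 and 182 CPM in inhibitor libraries, against 93.9, 105 and 99.2 CPM in control libraries (0.85 ± 0.06). Msmo1, an enzyme of cholesterol synthesis 25.0 kb from Cpe, was lower, with 47.6, 48.0 and 45.7 CPM in inhibitor libraries, against 103, 110 and 103 CPM in control libraries (-1.16 ± 0.06). All 5 had a Benjamini-Hochberg adjusted p of at most 9.43e-09 by edgeR quasi-likelihood. The span of Gm13546 overlaps that of Cytip, which was higher (209 ± 14.3 against 112 ± 8.59 CPM, 0.90 ± 0.07), and Hepacam2 lies 71 bases from Vps50 (0.26 ± 0.08). Whether reads from such neighbours reached the members was not tested.

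**Figure D4:**
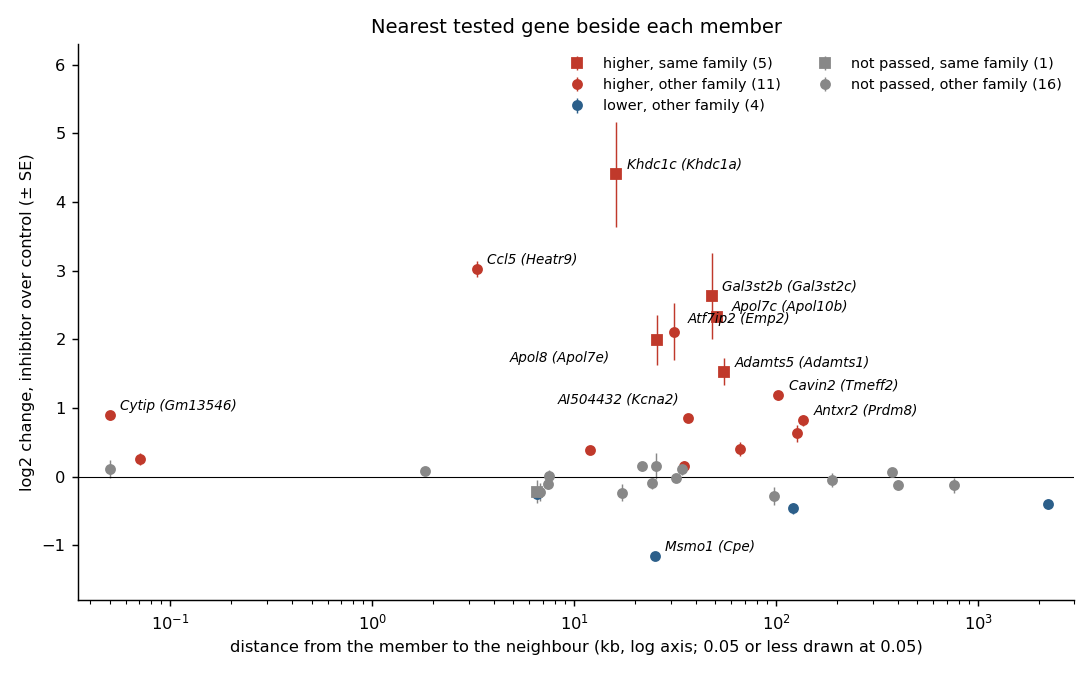
Log2 change of inhibitor over control (± SE, vertical axis) of the nearest tested gene beside each of the 37 members, against its distance from the member in kb (log axis). Squares are neighbours of the member's own family and circles others; red marks higher, blue lower and grey not past the threshold, with the member named in brackets. Most circles lie near 0, and Ccl5 beside Heatr9 stands out at 3.02.

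Exons of 6 members (Apol7e, Has2, Hhip, Prdm8, Sorcs1 and Wnt11) overlap an annotated transcript on the opposite strand, and the strand used in counting is not given, so reads of the pair cannot be told apart. Of these partners, Has2os had no count in any library. In all, 7 members shared more than 10% of their transcript's 50-base words with other genes (Apol7e, Gal3st2, Bcl2a1a, Khdc1a, Prdm8, Zfp457 and Gal3st2c), and 19 shared none, among them Myo5b, Cspg4, Scube1, Cpe, Tmeff2 and Adra2a.

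Promoters were compared with those of other genes that were low in the controls. Windows from 250 bases before to 50 after the start (RefSeq, GRCm38.p6) were found for 32 members, 35 windows in all. They held a median of 14 CpG pairs, against 4 in windows of genes under 0.5 CPM in every control library, 7 over all windows and 20 over windows of tested genes. Of the genes under that limit, 8517 of 11879 had no count in any control library, unlike any member. Against the 1202 other genes under the limit that had a count in every control library, whose median control level was 0.180 CPM beside 0.199 CPM for the members, the median was 14 CpG pairs in members' windows and 10 in theirs. At least 10 CpG pairs were present in 54.3% of the members' windows, against 50.3% of windows of those counted low genes, 27.5% of windows of all low genes and 76.7% of windows of tested genes. Windows of Cacna1c, Sorcs1 and Wnt11 had the most, with 57, 50 and 45 pairs, and that of Gm13546 had none.

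Motifs of 5 factor families were sought on both strands. TGACNNNGC, the core of the antioxidant response element bound by NRF2, occurred in 7 of the 35 windows, those of Apol7e, Cacna1c, Emp2, Gal3st2c, Heatr9, Hecw2 and Wnt11, against 12.4% of all windows and 11.2% of windows of genes low in the controls. The AP-1 motif TGANTCA, which can share letters with the NRF2 motif, occurred in 2 windows (5.71%, against 7.79% of all). The motif AGATAA of the haematopoietic GATA factors occurred in 1 (2.86%, against 11.2%). The Krueppel-like motif CCACACCC occurred in 1 (2.86%, against 3.57%), and the ETS motif CAGGAAGT in none (against 3.34%). The windows of Heatr9 (minus strand, chr11:83522050-83522349) and Gal3st2c (plus strand, chr1:93990255-93990554) are shown because only these held motifs of 2 kinds, and the motifs are in capitals. In Heatr9 the AP-1 and NRF2 letters run into each other, and in Gal3st2c CCACACCC occurs at 2 places and TGACNNNGC at 1.
Heatr9: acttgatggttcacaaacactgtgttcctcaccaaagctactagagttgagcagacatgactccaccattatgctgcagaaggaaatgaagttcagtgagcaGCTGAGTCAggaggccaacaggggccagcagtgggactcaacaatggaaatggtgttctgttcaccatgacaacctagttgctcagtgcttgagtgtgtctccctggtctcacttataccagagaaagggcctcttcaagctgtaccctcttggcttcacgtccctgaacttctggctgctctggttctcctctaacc
Gal3st2c: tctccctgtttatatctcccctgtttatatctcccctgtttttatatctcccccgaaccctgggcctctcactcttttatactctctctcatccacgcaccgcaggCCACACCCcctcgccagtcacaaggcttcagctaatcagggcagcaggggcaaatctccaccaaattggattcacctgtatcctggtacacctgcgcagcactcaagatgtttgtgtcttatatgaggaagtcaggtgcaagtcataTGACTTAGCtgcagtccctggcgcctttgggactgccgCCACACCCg
The match is a description of letters. Of 17 tested genes in a list of NRF2 targets 11 were higher and 1 lower, beside 20.4 and 20.1% of all tested genes, and 10 of 16 were higher without Gsta1, which passed the count filter through the inhibitor group. Of these Hmox1 was at 156 ± 4.71 CPM in the inhibitor group and 34.6 ± 2.57 CPM in the control group. The part of NRF2 in the members' levels was not tested.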

How the data were processed

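Messenger RNA libraries (VAHTS mRNA-seq V3, Trizol extraction, per the labels' protocols) were made from 3 inhibitor and 3 control samples. The authors deposited read counts per gene symbol for each library, not normalised, and RPKM values beside them, per the file headers. The build mm10 and bcl2fastq 2.20 are named in the submitters' processing notes. Aligner, counter and strand setting are not given in the sources used, so antisense and near-identical genes may share reads.

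CPM is the count per 1000000 of that library's summed counts, without TMM scaling. A robust quasi-likelihood model of edgeR 4.0.16 (R 4.3.3) was fitted to the counts of all 6 libraries, after filterByExpr (minimum count 10, minimum total 15) and TMM (factors 0.985 to 1.01), with Benjamini-Hochberg adjustment at 0.05 over 12978 genes. DESeq2 1.42.0 was an alternative. "Higher" and "lower" mean past that threshold, in the inhibitor group relative to the control group. Same-group libraries differed by more than counting noise (chi-square per degree of freedom 3.04 to 16.8), so no pair was merged and each was counted as 1 sample. On data simulated for this comparison over 12978 genes, the fit called 5 of 12778 unchanged genes, 8 of 50 changed 1.25-fold, 37 of 50 changed 1.5-fold, 46 of 50 changed 2-fold and 50 of 50 changed 4-fold. The simulation gave every gene the same chosen dispersion, so these rates hold for that setting only and were not measured on these libraries. Totals of 16873188 to 21245861 counts put 3 counts, taken as the limit that a count of 0 allows, at 0.141 to 0.178 CPM. Intervals and limits cover counting error only.

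Replicate numbers were not used as a block, as the labels do not say that they pair libraries. Deviations of same-numbered inhibitor and control libraries correlated by 0.0576, 0.00818 and 0.0366, and those of differently numbered libraries by -0.0452 to 0.0162. For each inhibitor library the same-numbered control library gave the highest value, though all values were small.

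The members and the gene lists were chosen with earlier results of these data known, and families were listed after the members were seen. Values per library are given for the 15 members highest in mean inhibitor CPM and the first 3 in each group of roles, and lists holding a member give up to 4 other genes with the smallest p-values, except 1 gene that is not reported here. Marker genes named at 0 or near 0, relatives from the families, Gli1, Wnt10b, Scn3a, Shh, Ihh, Dhh, Hmox1, Procr, Slamf1, Esam, Hlf, Ly6a, Kit, Cd34, Csn2, Cytip, Vps50, Has2os and A730035I17Rik were chosen after their values were seen. Nearest genes and promoters come from RefSeq GRCm38.p6 (24590 symbols matched by symbol, 384 by accession, 59 not at all) and 3′ UTRs from GENCODE M21. Promoters of Has2, Cpe, Myo5b, Ido2 and Khdc1a were not analysed here. Python 3.11.15 was used. Columns of other series: 0.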

Additional observations from a re-analysis of the deposited data

How the results depend on the processing

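Membership followed the limits more than the scaling. With a control limit of 0.25 CPM 12 genes met the rule, with 1 CPM 130, with an inhibitor limit of 2 CPM 5 and with 0.5 CPM 141. It took 38 genes with TMM-scaled totals (adding Zfp872), 42 when Rn45s and the 50 most abundant genes were left out of the totals (30 of the 37 kept) and 43 to 48 without 1 library, where the rule asks less and so cannot lose a member. Without control libraries 1 and 3, chosen after seeing the data, it took 66. The mirrored rule took 8 to 12 genes without 1 library.

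Over all genes, 2181 to 2849 were higher and 1877 to 2843 lower without 1 library, and 2574 and 2390 in DESeq2. With the replicate block 2831 were higher and 2842 lower, beside 2646 and 2613 without it, and no neighbour count changed (16 and 4). Of the members' neighbours, 13 to 16 were higher under the other fits, 14 to 16 without 1 library (3 or 4 lower), but 9 with no filter on low counts; within 50 kb 10 were higher and 2 lower of 24 tried. Without same-family neighbours, chosen after seeing the data, 11 were higher. Of 888 list counts under alternatives, 797 stayed within 1.5 times. The cause of these shifts was not tested, except that a wider limit admits more genes and no filter admits nearer and weaker neighbours. At 3 control counts, as for Sorcs1 and Heatr9, depth leaves a ratio open over more than 10-fold.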

Other observations

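Other genes stood just short of the rule and were named after their values were seen. Without inhibitor library 2 the rule also took the cardiac troponin gene Tnnt2, the neuronal tubulin gene Tubb3 and the podoplanin gene Pdpn, and without inhibitor library 3 the milk casein gene Csn2 and the desmosomal cadherin gene Dsg2. Tubb3 averaged 1.03 ± 0.0789 CPM in the inhibitor group and 0.111 ± 0.151 CPM in the control group (SD, n = 3 each). Mmp13, a collagenase of bone and cartilage added without inhibitor library 1, averaged 1.11 CPM in the inhibitor group and 0.0643 CPM in the control group. Among relatives of members, Khdc1c had 16, 12 and 16 counts in inhibitor libraries, against 0, 0 and 2 counts in control libraries, and Gal3st2b had 17, 9 and 35 counts in inhibitor libraries, against 1, 5 and 5 counts in control libraries.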
